A study of Macaca mulatta with 10 samples.

Results

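The 10 genes described here are markers and products of neutrophils. They encode the calprotectin chains S100A8 and S100A9 and the related S100A12, the granule proteins CAMP, LTF, LCN2 and MMP9, and the surface receptors CSF3R, ITGAM and FPR1. They were chosen by gene symbol, and all 10 had a row among the 18622 gene rows of the log2 table. The choice was made with earlier results of the same arrays known, among them a lower mean of neutrophil genes in unstable animals, so every difference between the groups below is a description. The tissue was lymph node from 10 male rhesus macaques, each on 1 array, of which 5 had lived under unstable and 5 under stable social conditions. The labels give ages without a unit, namely 6.84, 6.72, 6.7, 5.62 and 5.61 for unstable animals 1 to 5, and 5.73 to 5.87 for the stable animals. What the 2 social conditions consisted of is not given in the sources used here. The question of the series is how the node's transcripts compare between both.

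Neutrophils are short-lived white blood cells that leave the bone marrow, patrol the blood and enter tissue at sites of infection or injury. Few are present in a resting lymph node, and they enter it through blood vessels or lymph when the drained tissue is inflamed. S100A8 and S100A9 pair as calprotectin, a calcium and metal binding complex that makes up a large share of the neutrophil cytosol and is also made by monocytes. Granule proteins such as cathelicidin and lactoferrin are made while the cell matures in the marrow, so their transcripts mark immature cells more than mature ones.

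Macaque RNA was hybridised to Illumina bead arrays made for human genes, with a median intensity of 104 to 119 units. A log2 value counted as above background when it passed a threshold of 6.86 to 6.88, set for each array at the mode plus 3 SDs, with the SD taken from the side below that mode. Between 42.8% and 43.9% of genes passed on an array, and 8700 genes did so at least 3 times. A human probe can bind a macaque transcript poorly, so a value below the threshold does not show that a transcript is absent. For example, the B cell gene MS4A1 and the lysozyme gene LYZ were above background on no array, while the B cell gene CD79A and the macrophage genes CD68 and C1QA were above it on all 10. Unstable animals 1 to 3, the older ones by label, shared slide 1 with stable animal 5, unstable animals 4 and 5 were on slide 3, and stable animals 1 to 4 were on slide 2. In whole tissue, fewer cells of a type and less RNA per cell cannot be told apart.

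Of the 10 genes, 4 were above background on all 10 arrays, namely S100A9, CAMP, MMP9 and CSF3R, against 35.7% of all genes. S100A8, FPR1 and LCN2 were above it on 1 array each, and that array was the one of stable animal 2 in all 3 cases. Of the 785 genes above background on exactly 1 array, 14.3% were so on that of stable animal 2. S100A12, LTF and ITGAM were above it on no array, as were 46.8% of all genes. The highest value lay on the array of stable animal 2 for 6 of the 10 genes, while that array held the highest value of 13.2% of all genes.

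**Figure D1:**
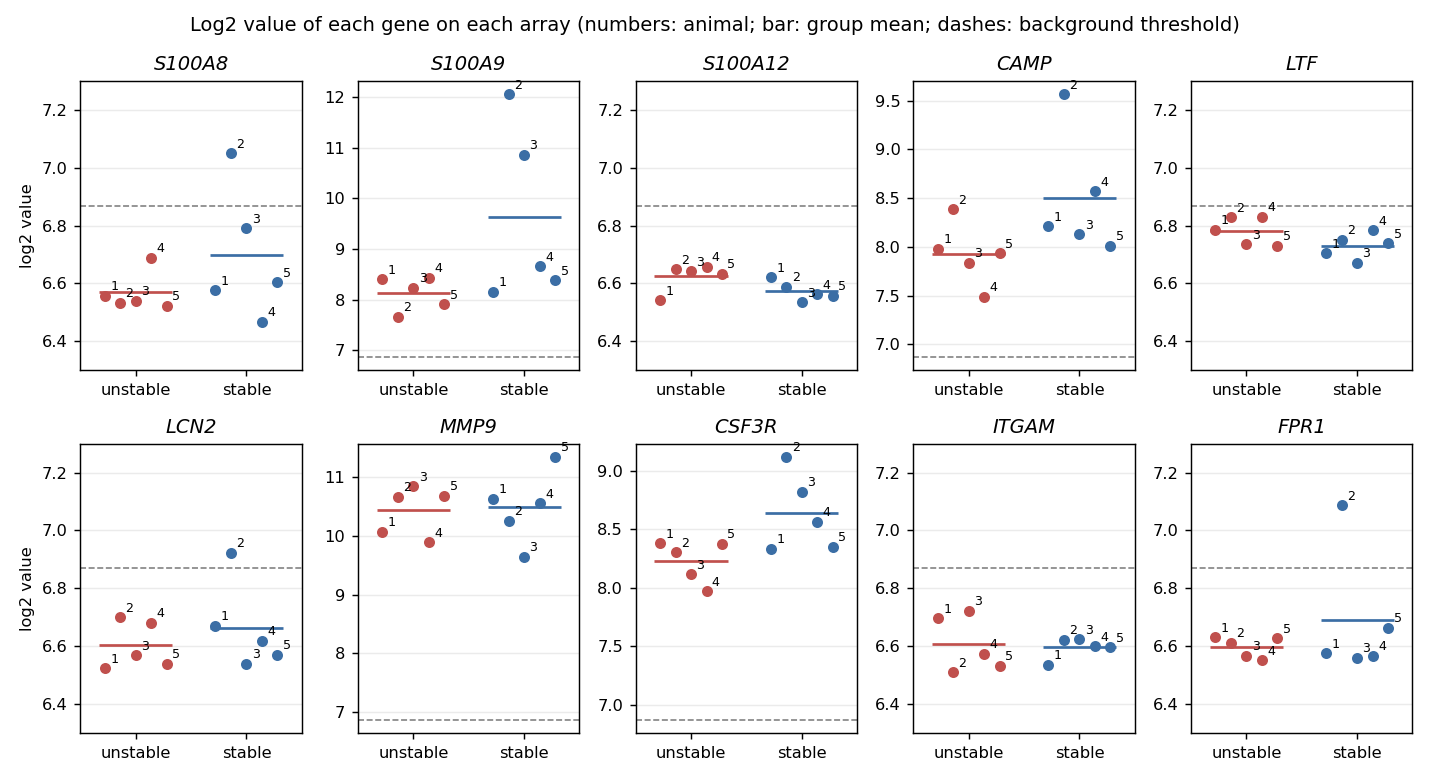
Log2 value (vertical axis) of the 10 genes on each array, in unstable (left, red) and stable (right, blue) animals, with numbers for the animal, a bar for the group mean and a dashed line for the mean background threshold. The 6 genes with low values share an axis, and the axes of the other 4 differ. S100A9 stood at 12.06 and 10.87 on the arrays of stable animals 2 and 3 and at 7.66 to 8.66 on the other 8.

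S100A9, the larger chain of calprotectin, varied more between animals than nearly any other gene. Its log2 values were 8.40, 7.66, 8.24, 8.44 and 7.92 in unstable animals 1 to 5, against 8.16, 12.06, 10.87, 8.66 and 8.38 in stable animals 1 to 5. Stable animals 2 and 3 thus stood far above the other 8 animals, and the other 3 stable animals lay between 8.16 and 8.66, where 2 of them were within the unstable range of 7.66 to 8.44. Against the median of the other 8 arrays, S100A9 was 13.4 times higher in stable animal 2 and 5.87 times higher in stable animal 3. Its range of 4.39 log2 units ranked 3 among the 18622 genes. The deposited intensities before scaling between arrays gave the same picture, with 230.6 to 418.8 units in unstable animals and 4538 and 1974 units in stable animals 2 and 3. The other 3 stable animals had 304.9, 430.8 and 377.6 units. Both high arrays were on slide 2, which also held the arrays of stable animals 1 and 4 at 8.16 and 8.66.

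S100A8, the partner chain, gave a dim signal that was above background in stable animal 2 alone. Its log2 values were 6.56, 6.53, 6.54, 6.69 and 6.52 in unstable animals 1 to 5, against 6.58, 7.05, 6.79, 6.47 and 6.61 in stable animals 1 to 5. The 9 values below the threshold, that of stable animal 3 among them, are not ranked. S100A12, a relative of both that signals through the receptor AGER, stayed between 6.54 and 6.66 on every array, below background. No fold is given for S100A8 or S100A12, since neither group mean exceeded the background threshold.

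**Figure D2:**
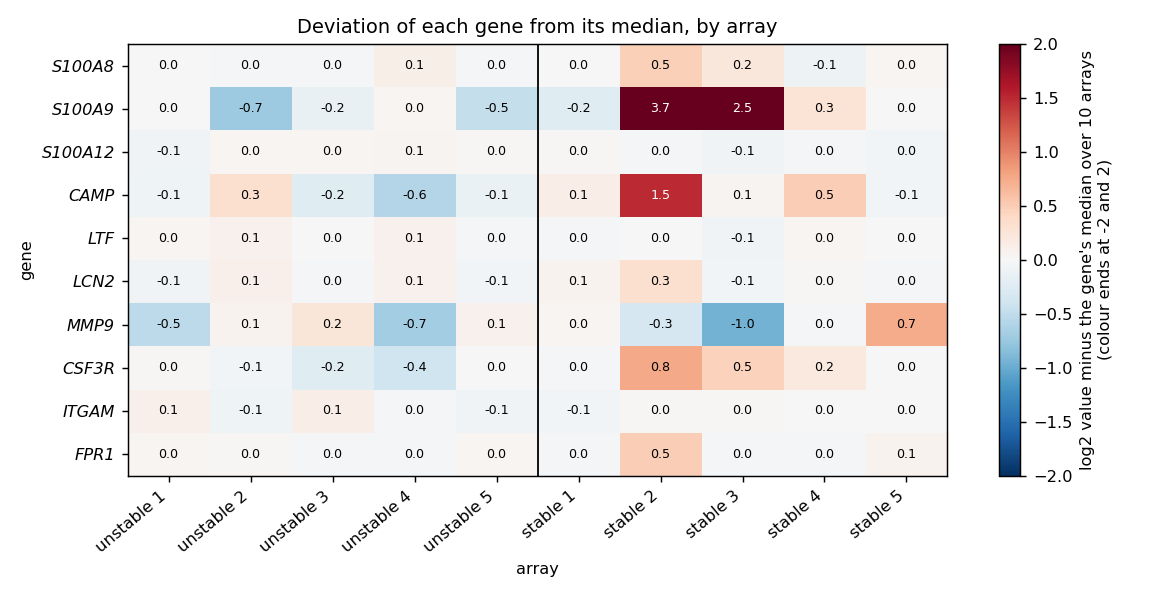
Log2 value of each gene (rows) minus its median over the 10 arrays, by array (columns), with unstable animals left of the line and stable animals right of it. Colour ends at -2 and 2 log2 units, and the number in each cell is the difference. The array of stable animal 2 was the highest for S100A8, S100A9, CAMP, LCN2, CSF3R and FPR1, and MMP9 was highest in stable animal 5 and lowest in stable animal 3.

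Among the granule proteins, CAMP was highest in stable animal 2 and MMP9 was not. CAMP encodes cathelicidin, an antimicrobial peptide precursor of the secondary granules. Its log2 values were 7.98, 8.39, 7.84, 7.49 and 7.93 in unstable animals 1 to 5, against 8.21, 9.57, 8.13, 8.57 and 8.01 in stable animals 1 to 5. Stable animal 2 was 2.97 times above the median of the 8 arrays without stable animals 2 and 3, while stable animal 3, second highest for S100A9, was in the middle of the range for CAMP. Stable animal 4 was second highest for CAMP.

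MMP9 is gelatinase B, an enzyme that cuts extracellular matrix and is stored in the tertiary granules, and macrophages also make it. Its log2 values were 10.07, 10.67, 10.84, 9.90 and 10.68 in unstable animals 1 to 5, against 10.63, 10.26, 9.64, 10.56 and 11.34 in stable animals 1 to 5. The groups overlapped, with the highest and the lowest value both in stable animals. Stable animal 3, high for S100A9, had the lowest MMP9 value of the 10. Stable animal 2 differed by -0.39 log2 units from the median of the 8 arrays without stable animals 2 and 3.

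LCN2 encodes lipocalin 2, which binds bacterial iron carriers. Its values were 6.52 to 6.70 in unstable animals, against 6.92 in stable animal 2 and 6.54 to 6.67 in the other 4 stable animals. Only the 6.92 exceeded the threshold, by a small margin. LTF encodes lactoferrin, the iron-binding protein of the secondary granules, and lay between 6.67 and 6.83, below background on every array. LCN2 and LTF get no fold for the reason given for S100A8.

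Of the receptors, CSF3R was highest in the 2 animals that were highest for S100A9. CSF3R is the receptor for granulocyte colony-stimulating factor, the main growth signal of the neutrophil lineage. Its log2 values were 8.38, 8.31, 8.12, 7.97 and 8.38 in unstable animals 1 to 5, against 8.33, 9.12, 8.82, 8.57 and 8.35 in stable animals 1 to 5. Stable animals 2, 3 and 4 were above every unstable animal, and stable animals 1 and 5 were within the unstable range of 7.97 to 8.38. The CSF3R row equalled the mean of 2 probes within 0.00013 log2 units on every array. One of these probes was dim on every array, at 87.9 to 109.7 units. The other had 449.1 to 727.9 units in unstable animals and 598.5 to 1046 units in stable animals, so the averaged row understates the relative differences of the brighter probe.

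FPR1 detects formylated peptides that bacteria release and guides neutrophils toward them. It lay at 6.55 to 6.63 in unstable animals, against 7.09 in stable animal 2 and 6.56 to 6.66 in the other 4 stable animals. The array of stable animal 2 was thus the only one to exceed the threshold. ITGAM, the alpha chain of the Mac-1 integrin of neutrophils and macrophages, stayed between 6.51 and 6.72 on all arrays. FPR1 and ITGAM likewise get no fold.

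Over the 10 arrays, S100A9 had a Pearson correlation of 0.87 with CSF3R, 0.68 with CAMP and -0.49 with MMP9. These values rest on stable animals 2 and 3, since over the other 8 arrays they were 0.09, -0.10 and -0.20. CAMP and CSF3R were related with and without those animals, at 0.85 over 10 arrays and 0.83 over 8. The correlations describe arrays of whole tissue that share 3 slides, and they carry no test.

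Between the social conditions, S100A9, CAMP and CSF3R had lower means in unstable animals, and none of the 10 genes passed the test over all genes. S100A9 averaged 8.13 ± 0.33 log2 units in unstable and 9.63 ± 1.74 in stable animals (SD, n = 5 each), a difference of -1.49 (SE 0.69) or 2.81 times lower in unstable animals. CAMP averaged 7.925 ± 0.32 in unstable and 8.499 ± 0.63 in stable animals (SD, n = 5 each), a difference of -0.57 (SE 0.28). CSF3R averaged 8.23 ± 0.18 in unstable and 8.64 ± 0.33 in stable animals (SD, n = 5 each), a difference of -0.41 (SE 0.15). Each of these 3 had a limma adjusted p of 0.942. MMP9 averaged 10.43 ± 0.42 in unstable and 10.49 ± 0.62 in stable animals (SD, n = 5 each), a difference of -0.06 (SE 0.29, limma adjusted p = 0.994).

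Across the table, 0 of 18622 genes passed an adjusted p of 0.05 with limma (0%), and 956 had an unadjusted p under 0.05, which is 5.13% of them. Of the 10 genes, 0 passed and 1, CSF3R, had an unadjusted p under 0.05. The groups did not overlap for 0 of the 10 genes, against 0.838% of all genes. Means were lower in unstable animals for 7 of the 10 genes and for 51.1% of all genes, and the median difference was -0.08 log2 units over the 10 genes and -0.0015 over all genes. As the contrast was known when the genes were chosen, these shares support nothing beyond the values themselves. The spread of S100A9 in stable animals, an SD of 1.74, ranked 3 among the 18622 genes, and in unstable animals its SD of 0.33 ranked 586.

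The size of these differences changed without stable animal 2 and within slide 1 alone. Slide 1 holds neither stable animal 2 nor stable animal 3, so slide and choice of animals cannot be told apart there. Without stable animal 2 the S100A9 difference was -0.88, that of CAMP was -0.31 and that of CSF3R was -0.29. Within slide 1, the only slide with both groups, the 3 unstable animals stood against stable animal 5 alone, with differences of -0.28 for S100A9, 0.05 for CAMP, -0.08 for CSF3R and -0.82 for MMP9. The sign of the MMP9 difference changed without unstable animal 1 (0.03), unstable animal 4 (0.08) or stable animal 5 (0.16).

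**Figure D3:**
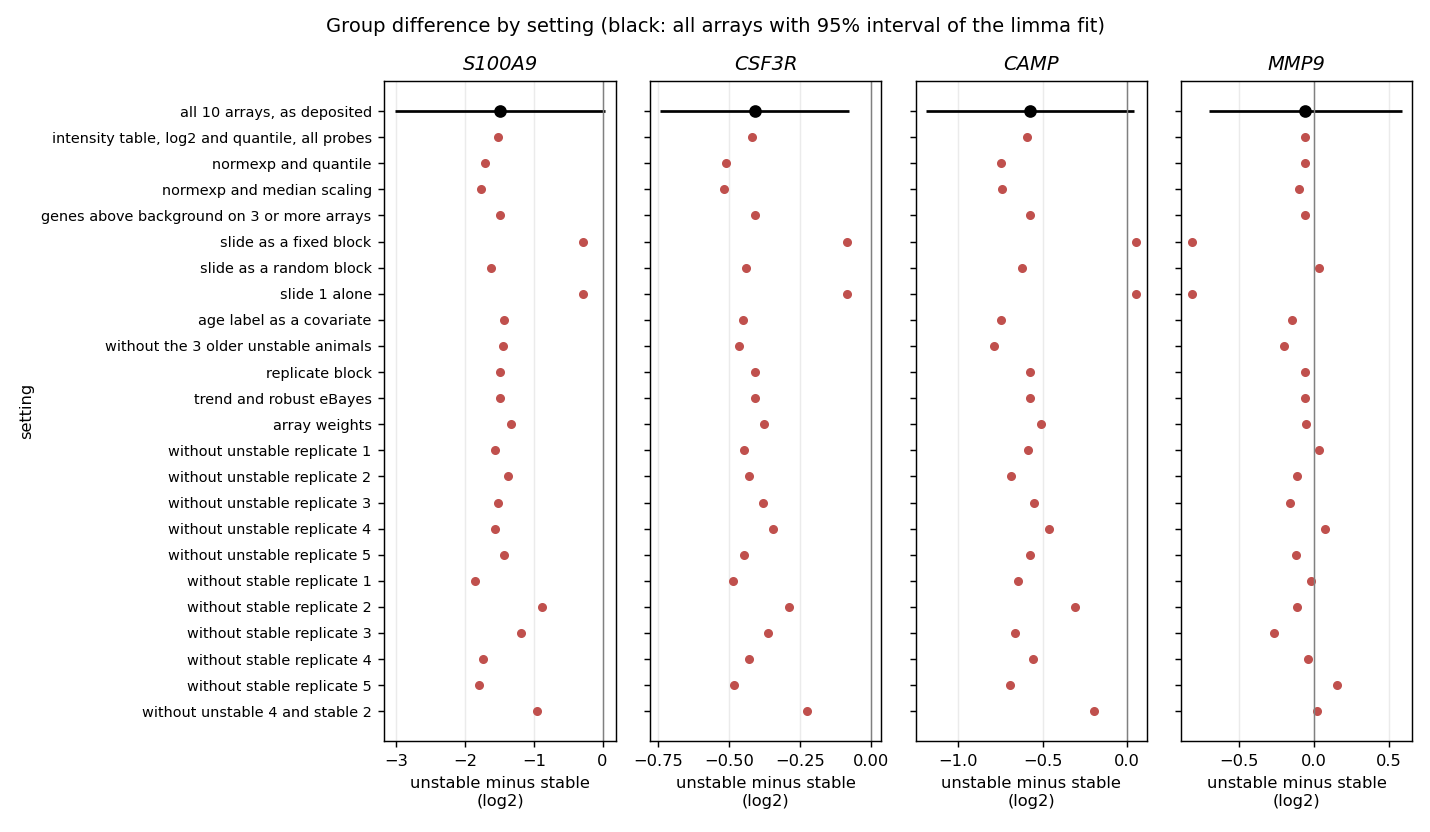
Difference in log2 value, unstable minus stable (horizontal axes), of the 4 genes above background on all arrays, under each setting (rows). Black marks all 10 arrays as deposited with the unadjusted 95% interval of the limma fit, and red marks the alternatives. S100A9 ran from -1.86 to -0.28 and CSF3R from -0.52 to -0.08, while CAMP and MMP9 crossed 0.

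Other neutrophil genes were described from 8 lists, and 0 genes of these lists passed the test in either direction. Primary granule genes, whose products kill engulfed microbes, had 11 rows, of which 3 exceeded background on at least 3 arrays. These were DEFA1, DEFA3 and MPO. Each was highest in stable animal 2, against 13.9% of all genes above background on 3 or more arrays. DEFA1 passed this filter on 3 stable arrays alone and DEFA3 on 1 unstable and 2 stable arrays. Their high place in stable animals is thus partly built in. Over all 11 rows, 4 were highest in stable animal 2. DEFA1, an alpha defensin whose near-identical copies a probe may not separate, had values of 6.55 to 6.76 in unstable animals, none above background, against 6.65, 7.36, 6.95, 6.57 and 6.99 in stable animals 1 to 5. MPO, the myeloperoxidase that makes hypochlorous acid, was at 6.62 to 7.08 in unstable animals, against 6.79, 7.19, 7.12, 6.86 and 6.99 in stable animals 1 to 5, a difference of -0.15 (SE 0.10), or -0.09 without unstable animal 3 and -0.10 without stable animal 2. ELA2, PRTN3, AZU1, CTSG, BPI, DEFA4 and RNASE2 were above background on no array.

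Secondary and tertiary granule genes had 17 rows, of which 14 were above background on no array, CEACAM8, MMP8, CRISP3 and CD177 among them. FCN1, a pattern-recognition lectin of monocytes and neutrophils, was at 6.60 to 6.99 in unstable animals, against 6.75, 8.32, 7.15, 6.93 and 6.78 in stable animals 1 to 5. Its difference was -0.37 (SE 0.26, limma adjusted p = 0.945), and -0.09 without stable animal 2. HP, the haemoglobin-binding protein haptoglobin, was at no more than 7.10 in unstable animals, against 7.48 in stable animal 2. PGLYRP1 of the same list, above background on 7 arrays, did not peak there. It was highest in unstable animal 1, at 7.19, and stood at 6.97 in stable animal 2. DEFA3, MPO and FCN1 were next highest in stable animal 3, and DEFA1 was next highest in stable animal 5.

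Genes of the phagocyte oxidase, which makes superoxide, exceeded background on at least 3 arrays in 6 of 6 cases, and their mean log2 level was 8.94 to 9.27 in unstable and 9.08 to 9.20 in stable animals. CYBB, its catalytic chain, differed by -0.23 (SE 0.12) and RAC2, a GTPase that activates it, by 0.25 (SE 0.16), or 0.38 without unstable animal 5. CYBB was highest in stable animal 2 at 10.07 and RAC2 in unstable animal 2 at 11.85. Of 23 surface receptor genes 11 exceeded background on at least 3 arrays, with a median difference of -0.03. LILRA2, an activating receptor of myeloid cells, differed by -0.35 (SE 0.17), and C5AR1, the receptor for complement C5a, by -0.24 (SE 0.23). Both were highest in stable animal 2, at 8.02 and 9.39, and their differences were -0.19 and -0.06 without that animal. They were the only 2 of the 11 to be highest there (18.2%), against 13.9% of all genes above background on 3 or more arrays. PTAFR, the receptor for platelet-activating factor, differed by -0.18 (SE 0.065). IL8RB, the older symbol of the chemokine receptor CXCR2, was above background on no array.

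Of 18 genes of the neutrophil cytosol and nucleus, 10 exceeded background on at least 3 arrays, with 5 higher and 5 lower in unstable animals. CEBPD, a transcription factor of the C/EBP family, stood at 8.35, 8.00, 8.15, 8.11 and 8.01 in unstable animals 1 to 5, against 7.85, 9.47, 8.63, 8.23 and 8.18 in stable animals 1 to 5. The highest 2 values were those of stable animals 2 and 3, and the group difference was -0.35 (SE 0.25), or -0.09 without stable animal 2. ALOX5AP, which serves leukotriene synthesis, differed by 0.48 (SE 0.40), or 0.20 without stable animal 3, and LST1, a myeloid transmembrane protein, by -0.19 (SE 0.08). Of 14 chemoattractant and growth factor genes 5 exceeded background on at least 3 arrays, with a median difference of -0.005, and 0 of those 5 were highest in stable animal 2. IL8, the older symbol of the neutrophil attractant CXCL8, and CSF3, the ligand of CSF3R, were above background on no array.

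Among 7 genes for receptors and partners of calprotectin, TLR4 and the co-receptor CD14 were above background on all arrays. CD36, a scavenger receptor also found in fat and endothelium, differed by 0.51 (SE 0.24) and was highest in unstable animal 4 at 8.92, and without that animal the difference was 0.32. MYD88, the adaptor of TLR4, differed by -0.19 (SE 0.16) and was highest in stable animal 2 at 7.45. Without stable animal 2 the MYD88 difference was -0.07, and without stable animal 4 it was -0.29. Of 15 other S100 genes 11 exceeded background on at least 3 arrays, and 1 of them, S100A4, was highest in stable animal 2. S100A4, a calcium-binding protein of motile cells, differed by 0.14 (SE 0.14). The S100A4 difference was 0.05 and 0.07 without stable animals 1 and 4, and 0.23 and 0.22 without stable animals 2 and 5. S100A1, a muscle-rich member, differed by 0.19 (SE 0.18), or 0.02 without unstable animal 4 and 0.30 without unstable animal 5. Within slide 1 the differences of CYBB, LILRA2 and S100A4 had the opposite sign, at 0.12, 0.08 and -0.16. The mean of the other S100 genes was 8.37 in stable animal 2 and 8.37 in stable animal 3, within the 8.24 to 8.48 of the other 8 arrays.

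**Figure D4:**
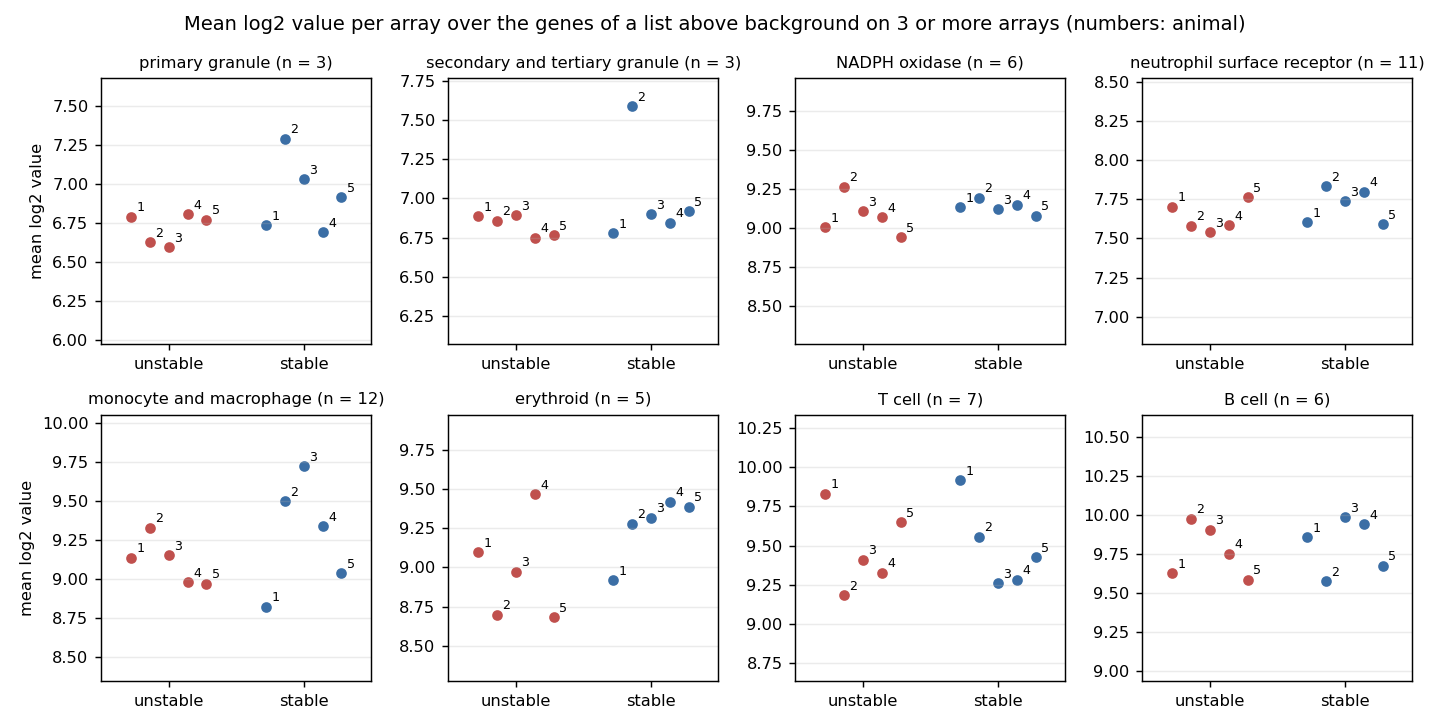
Mean log2 value (vertical axes, each 1.7 units tall) over the genes of a list above background on 3 or more arrays, by array, in unstable (left, red) and stable (right, blue) animals, with numbers for the animal. Granule lists were highest in stable animal 2, the monocyte and macrophage list in stable animals 3 and 2, the T cell list in stable animal 1 and the B cell list in stable animal 3. Each granule list shows 3 genes. Of these, DEFA1, DEFA3, FCN1 and HP passed the filter with 0 or 1 unstable arrays, so the granule peak is partly built in. Over all rows, 4 of 11 primary and 4 of 17 secondary and tertiary granule genes were highest in stable animal 2.

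The mean level of monocyte and macrophage markers was highest in stable animals 3 and 2, the animals that were highest for S100A9. Single markers differed in this. Of 14 such markers 12 exceeded background on at least 3 arrays, and 11 of the 12 had lower means in unstable animals, against 51.5% of all genes that did so. One of the 11, CSPG2, exceeded background in stable animals alone. Its direction thus followed from the filter, and it adds nothing to this count. Of the 12 markers 4 were highest in stable animal 2 (33.3%), against 13.9% of all genes above background on 3 or more arrays. This share was higher in several neutrophil lists, at 50% for the oxidase, 42.9% for calprotectin receptors and partners and 40% for cytosol and nucleus. The granule lists, of 3 genes each, had 100% and 66.7%. Surface receptors had 18.2%, other S100 genes 9.09%, and chemoattractants and the other marker lists 0%. The mean log2 level of the 12 markers was 8.97 to 9.33 in unstable animals, against 8.82, 9.50, 9.72, 9.34 and 9.04 in stable animals 1 to 5. CD163, a haemoglobin scavenger receptor of macrophages, was at no more than 7.31 in unstable animals, against 8.39 and 7.95 in stable animals 2 and 3 and 6.78 to 7.32 in the other 3 stable animals, and its difference of -0.30 (SE 0.27) had the opposite sign within slide 1, at 0.28. The CD163 difference was -0.07 without stable animal 2, -0.18 without stable animal 3 and -0.47 without stable animal 1. CSPG2, the older symbol of versican, a matrix proteoglycan that monocytes express, was at 6.67 to 6.87 in unstable animals, none above background, against 7.09, 8.82, 6.90, 7.06 and 6.997 in stable animals. It was at least 1.42-fold higher in stable animals, taking the stable mean against the mean of the lowest signals above background, with a limma adjusted p of 0.942. Stable animal 2 carried most of this bound, which was at least 1.103-fold without it. CSPG2 was the only gene of the 15 lists, of 6 to 23 gene rows each, whose groups did not overlap. Over all genes the groups did not overlap for 0.838%, and 0.516% lay wholly lower in unstable animals. A single such gene over these lists is not read as a result. LYZ and MS4A7 were above background on no array. The part of monocytes and macrophages in the S100A9 values was not tested.

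Globin transcripts, which mark red blood cells, had lower means in unstable animals. HBA2, an alpha globin gene, was at 11.18, 10.21, 10.93, 10.98 and 10.64 in unstable animals 1 to 5, against 10.87, 11.69, 11.83, 12.15 and 12.12 in stable animals 1 to 5. HBB, the beta globin gene, was at 12.46, 11.61, 12.23, 12.90 and 11.78 in unstable animals 1 to 5, against 12.58, 13.19, 13.04, 13.11 and 13.22 in stable animals 1 to 5. For both genes stable animals 2 to 5 were above every unstable animal, and stable animal 1 was not. The differences were -0.94 (SE 0.25) for HBA2 and -0.83 (SE 0.23) for HBB, each with a limma adjusted p of 0.918, and the part of blood in the values of the 10 genes was not tested. SELENBP1, another gene of the erythroid list, peaked at 9.54 in unstable animal 4, with the other 9 animals between 7.55 and 8.13. The erythroid list had 5 of 11 genes above background on 3 or more arrays, with mean levels of 8.68 to 9.47 in unstable and 8.92 to 9.42 in stable animals, and stable animals 2 and 3 stood at 9.28 and 9.32. Platelet markers had 3 of 10 and mean levels of 7.39 to 7.79 in unstable and 7.27 to 7.69 in stable animals, with the defining genes PF4, PPBP and ITGA2B above background on no array. Of 19 markers of squamous or glandular epithelium, which also makes S100A9 and LCN2, 14 were above background on no array, KRT5, KRT13, KRT6A, KRT19 and PIGR among them. TACSTD1, the older symbol of EPCAM, CDH1 and AMY1A were above it on all 10 arrays. The 4 above background on 3 or more arrays had mean levels of 8.75 to 8.86 in unstable and 8.79 to 8.92 in stable animals. Of these, AMY1A was bright, at 12.22 to 12.49 in unstable and 12.14 to 12.46 in stable animals. Mast cell, basophil and eosinophil markers had 4 of 11 above background on 3 or more arrays, at 7.23 to 7.66 in unstable and 7.24 to 7.44 in stable animals. The defining lymph node markers were present, with 7 of 9 T cell genes and 6 of 9 B cell genes above background on all arrays. The T cell list was at 9.18 to 9.83 in unstable and 9.26 to 9.92 in stable animals and the B cell list at 9.59 to 9.97 in unstable and 9.58 to 9.99 in stable animals.

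The genes most like calprotectin were sought among 8696 other genes above background on 3 or more arrays, by the Pearson correlation over the 10 arrays with the mean of S100A8 and S100A9. The 8 with the highest values were HSP90B1, HBG1, PDIA6, CEBPD, CD163, SRM, DNAJC3 and ECGF1, with correlations from 0.97 for HSP90B1 to 0.90 for ECGF1. All 8 had their highest and second highest values in stable animals 2 and 3. The choice favours this pattern, since the mean of S100A8 and S100A9 was farthest from its median in those 2 animals. That mean mostly follows S100A9, with a range of 4.39 log2 units. S100A8 had a range of 0.58 and exceeded background on 1 array. HSP90B1, a chaperone of the endoplasmic reticulum, was at 11.70 to 11.78 in unstable animals, against 12.55 and 12.35 in stable animals 2 and 3 and 11.56 to 11.69 in the other 3 stable animals. PDIA6, a disulfide isomerase of the same compartment, was at 8.42 and 8.15 in those 2 animals and at 7.69 to 7.87 in the other 8. DNAJC3, a co-chaperone there, was at 8.61 and 8.39 against 7.58 to 8.02. ECGF1, the older symbol of thymidine phosphorylase, was at 10.41 and 9.43 in those animals against 8.17 to 8.78 in the other 8. SRM, the spermidine synthase, was at 9.45 and 8.96 against 8.11 to 8.80. HBG1, a fetal globin gene, was dim, at 7.11 and 6.98 against 6.79 to 6.88.

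Over the other 8 arrays the correlation was 0.04 for HSP90B1, -0.10 for PDIA6, 0.07 for CD163, 0.12 for DNAJC3 and -0.47 for ECGF1, so that for these 5 genes it rests on stable animals 2 and 3. It was 0.75 for SRM, 0.57 for CEBPD and 0.41 for HBG1 over the same 8 arrays. The choice also favours group differences below 0, as both high animals were stable. These differences were -0.24 (SE 0.18) for HSP90B1, -0.23 (SE 0.12) for PDIA6, -0.36 (SE 0.15) for DNAJC3 and -0.64 (SE 0.36) for ECGF1, with limma adjusted p from 0.942 to 0.946. Without stable animal 2 they were -0.09, -0.13, -0.24 and -0.30, and within slide 1 those of HSP90B1 and ECGF1 were above 0, at 0.05 and 0.01.

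**Figure D5:**
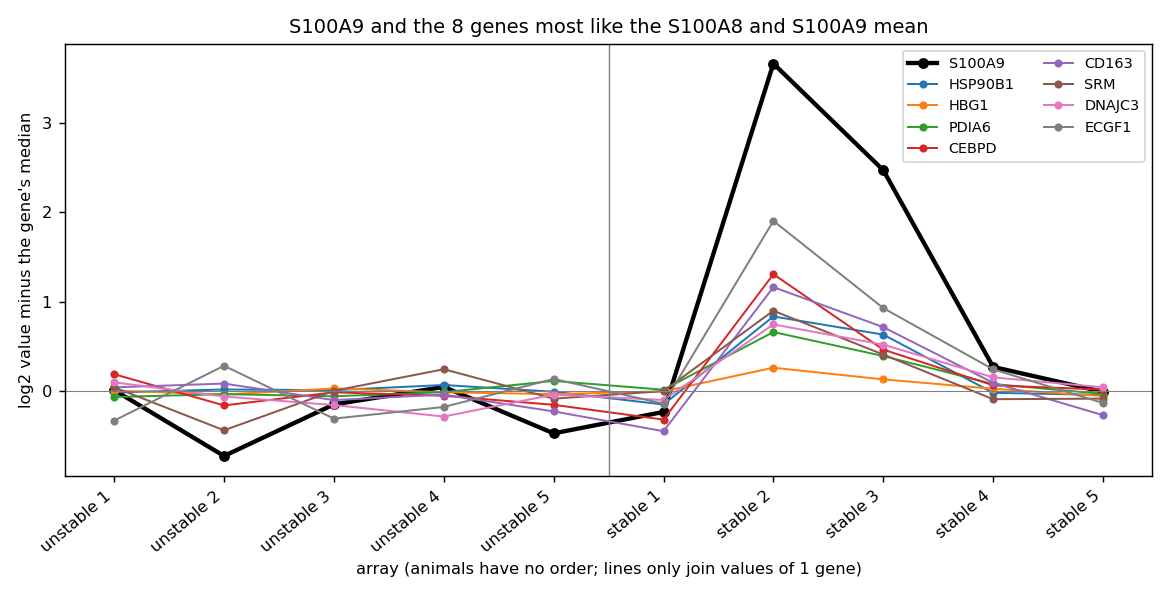
Log2 value minus the gene's median over the 10 arrays (vertical axis) for S100A9 (black) and the 8 genes most like the mean of S100A8 and S100A9 (colours), by array, unstable animals left of the line and stable animals right of it. Lines join values of 1 gene and imply no order of animals. All 9 genes were highest in stable animal 2 and next highest in stable animal 3, a pattern that the choice of the 8 by correlation favours.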

How the data were processed

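Lymph node RNA of 10 male rhesus macaques was measured on 1 array each. The authors deposited an intensity table of 24526 probes, unscaled between arrays, and the submitters' processing notes name GenomeStudio. They also deposited log2 values for 18622 gene symbols, which have nearly the same distribution on every array, and no source used here names the software of that scaling. Intensities were matched to the log2 rows, and 14870 rows equalled 1 probe within 0.005 log2 units on all arrays. No background correction was made in the main test, so differences of dim genes are understated.

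Groups were compared by lmFit and eBayes of limma 3.58.1 (R 4.3.3), two-sided and without covariates, over all 18622 rows with Benjamini-Hochberg adjustment, after a check on simulated data. The number of arrays limits the precision. The genes, lists and tests were chosen with earlier results of these data known. Genes named beside the 10 are up to 3 per list with the largest difference, above background on 3 or more arrays (not all of these are described), and the 8 most like calprotectin. Genes named for being above background on no or all arrays were chosen after their values were seen. Alternatives were the intensity table with other background correction or scaling, a filter on dim genes, slide or replicate number as a block, slide 1 alone, the age label as a covariate, no older unstable animals, array weights, a robust eBayes with trend, and leaving out animals one at a time. Sequences were not used here. Figures were drawn with matplotlib 3.10.9.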

Additional observations from a re-analysis of the deposited data

Results flagged for a closer look

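For 35 of the genes with values in the text, both groups of 5 were tested for an animal far from the other 4. Dixon's critical value of 0.71 for the gap over the range was used. HP, PGLYRP1, SELENBP1 and AMY1A were not tested, so the peak of SELENBP1 in unstable animal 4 could not be flagged. Of the 70 groups tested 7 were flagged. Chance flags about 1 in 20 independent groups, and that share does not apply here, since many of the genes were chosen for standing high in stable animals 2 and 3 or for a large difference, and they share arrays. Of the 7, 3 were on the array of stable animal 2. FPR1 stood at 7.09 there and at 6.56 to 6.66 in the other 4 stable animals, a gap of 0.803 of the range. FCN1 stood at 8.32 there and at 6.75 to 7.15 in the others (0.741), and CSPG2 at 8.82 and at 6.90 to 7.09 in the others (0.9). RAC2 was lowest in unstable animal 5, at 11.13, where the remaining unstable animals had 11.75 to 11.85 (0.853). HBB was lowest in stable animal 1, at 12.58, where the remaining stable animals had 13.04 to 13.22 (0.73). The remaining flags lie below background, with S100A8 at 6.69 in unstable animal 4 (0.787) and S100A12 at 6.54 in unstable animal 1 (0.794).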

How the results depend on the processing

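The 25 group differences given in the text were recomputed under up to 23 alternatives each, 563 values in all, of which 543 kept their direction, 20 changed it and 0 passed the threshold. The count of genes past the threshold stayed at 0 except with slide as a fixed block, where 1 gene passed (MRPL38, limma adjusted p = 0.0291), and with the 3 older unstable animals left out, where 1 gene passed (HSBP1, limma adjusted p = 2.47e-05). Both genes were picked out by these values. With 1 animal left out it was 0 in each of the 10 fits. With slide as a fixed block and within slide 1 alone, which rest on stable animal 5 as the only stable animal beside unstable ones, CAMP was at 0.0542, CYBB at 0.117, LILRA2 at 0.0814, CD163 at 0.278, S100A4 at -0.159, HSP90B1 at 0.0481 and ECGF1 at 0.0147. The MMP9 difference was 0.0368 with slide as a random block, and with 1 animal left out it ran from -0.27 to 0.16. Unstable animal 4 and stable animal 2 correlated least with the other arrays, and without both, an alternative added after the data were seen, MMP9 was at 0.0202, C5AR1 at 0.0324, S100A9 at -0.96, CSF3R at -0.22 and CAMP at -0.20. With normexp correction (offset 16) and quantile scaling S100A9 was at -1.71 and CAMP at -0.75. Replicate numbers did not pair the animals, as deviations of same-numbered animals correlated at -0.06 to 0.01, and with the replicate block 0 genes passed. Signal near background limits S100A8, S100A12, LTF, LCN2, ITGAM and FPR1, which were below background on 9 or 10 arrays. The causes of these changes were not tested.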
